A study of Mus musculus with 12 samples.

Results

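The genes described here are 9 components of the machinery that detects DNA in the cytosol: the sensors Cgas, Aim2, Ifi204, Ifi203 and Zbp1, the adaptor Sting1, the kinase Tbk1, the transcription factor Irf3 and the DNA-degrading exonuclease Trex1. They were taken by symbol, current or older, from the 57010 Ensembl mouse gene IDs of the count tables, and all 9 were found (Sting1 under its older symbol Tmem173). Polyadenylated RNA was sequenced from primary chondrocytes, the cells that build cartilage matrix, of mice with the genotype label Wild type, in 12 libraries. The libraries form 3 groups of 4. The group labelled WT came from cells transfected with a plasmid called wild type, the group labelled SIRT5F101L from cells transfected with a plasmid coding for SIRT5, a mitochondrial lysine deacylase, with the F101L mutation, and the remaining group is labelled Control. The labels do not say what the Control cells received, so the presence of plasmid DNA, the transfection itself and the encoded protein cannot be told apart in a comparison with Control. Nor do the labels give an age, a promoter, a time after transfection or separate cultures or animals, and the p-values therefore measure only the spread between these libraries.

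Double-stranded DNA in the cytosol binds cGAS, which makes the cyclic dinucleotide cGAMP. cGAMP binds STING on the endoplasmic reticulum, STING moves to the Golgi and recruits TBK1, and TBK1 phosphorylates IRF3, which enters the nucleus and switches on interferon-beta and other antiviral genes. AIM2 and the mouse p200 proteins, IFI204 and IFI203 among them, form the PYHIN family: AIM2 builds an inflammasome on DNA, and IFI204 is the mouse relative of human IFI16. ZBP1 binds Z-form nucleic acids and can trigger necroptosis. TREX1 degrades cytosolic DNA and so limits cGAS.

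Several of these genes are known interferon targets themselves. The interferon-stimulated response element (ISRE), the DNA site through which interferon acts on its target genes, has a core made of GAAA, any 2 bases and GAAA again. RefSeq promoter windows (GRCm38.p6, 250 bases before to 50 after an annotated start) were searched for it on both strands. Windows were found for 6 of the 9 genes (Aim2, Cgas, Ifi203, Irf3, Tbk1 and Trex1), and of these only Ifi203 held the core. In the PYHIN family as a whole, 9 of the 12 genes with a window held it (75%), against 3.99% of the 27025 genes with a window. Each of the 9 has 1 core that reads in the direction of the gene and begins 35 to 134 bases before an annotated start. Mndal and Ifi205 each have a further match in the opposite direction, 54 bases before another annotated start of Mndal and 23 bases after the start of Ifi205, which is not shown. The 30 bases around the 9 cores that read with the gene are printed below, 5′ to 3′ in the direction of the gene, with the core in capitals. They are shown because levels of Ifi203, Ifi207, Ifi208, Ifi211 and Mndal are given further on. The search itself fixed every letter of the core except the 2 free bases, so only these and the flanks can differ.
Ifi203, chr1:173942508-173942537, minus strand: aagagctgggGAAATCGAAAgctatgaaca
Mndal, chr1:173880204-173880233, minus strand: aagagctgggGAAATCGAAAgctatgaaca
Ifi207, chr1:173741831-173741860, minus strand: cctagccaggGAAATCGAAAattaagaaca
Ifi211, chr1:173913064-173913093, minus strand: caaagccaggGAAATTGAAAgctatgaacg
Ifi205, chr1:174031870-174031899, minus strand: ccaggccaggGAAATTGAAAgctatgaaca
Ifi208, chr1:173673597-173673626, plus strand: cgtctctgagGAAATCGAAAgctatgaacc
Ifi206, chr1:173491339-173491368, minus strand: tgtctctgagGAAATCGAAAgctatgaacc
Ifi213, chr1:173599326-173599355, minus strand: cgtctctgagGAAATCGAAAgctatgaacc
Ifi214, chr1:173536017-173536046, minus strand: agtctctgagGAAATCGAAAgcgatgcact
This core reads GAAATCGAAA in 7 of the genes and GAAATTGAAA in Ifi205 and Ifi211. Ifi203 and Mndal have identical letters over all 30 bases. A match describes the sequence and says nothing about whether a factor was bound.

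The libraries held 15095357 to 24242139 counts, and 1 count equalled 0.0413 to 0.0662 CPM (counts scaled to the size of the library). CPM values below are scaled by TMM factors, which adjust for differences in library composition. On principal components the Control libraries stood apart from all 8 plasmid libraries on the first axis (72.7% of the variance). On the second axis (5.66%) SIRT5F101L replicate 1, at 20.3, lay with WT replicates 2 to 4 (12.5 to 20.1) and away from the other SIRT5F101L libraries (-23.5 to -17.0), and WT replicate 1 lay between, at -1.07. Counts of endogenous Sirt5 were 9 to 16 in Control, 1 to 9 in WT and 9 to 19 in SIRT5F101L libraries and so gave no sign of the plasmids. Gene IDs on chromosomes X and Y and on mitochondrial DNA (placed by GENCODE M21) were listed at 0 in all libraries. None of the 9 genes lies on them.

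The first question was whether cells given a plasmid had other levels of the sensing machinery than Control cells. They did for 6 of the 9 genes, in the same direction in both plasmid groups. Zbp1 rose about 8-fold, Ifi204, Ifi203 and Sting1 about doubled in the WT group, Tbk1 rose slightly, to 1.16-fold and 1.19-fold, and Irf3 fell. Cgas and Aim2 were low and did not pass the test, and Trex1 had no counts. In edgeR's quasi-likelihood test over 14253 genes, called where the p adjusted by Benjamini-Hochberg was under 0.05, WT against Control called 5 of the 8 genes with counts higher and 1 lower. SIRT5F101L against Control also called 5 higher and 1 lower. The background is high: 56.8% of all tested genes were called in WT against Control (28.7% higher, 28.1% lower) and 60.7% in SIRT5F101L against Control (30% higher, 30.7% lower). The Control and plasmid libraries did not overlap for these 6 genes in either comparison, as was true of 53.5% and 51.3% of all tested genes. With 75% of 8 genes called in each, the count alone is close to the background and is not a result about these genes. Among called genes at least 2-fold apart, the list held 4 of 8 in WT against Control and 3 of 8 in SIRT5F101L against Control, against 16.7% and 17.5% of all tested genes. In WT, Sting1 and Ifi203 stood at this cut. Their log2 fold changes went down to 0.98 and 0.96 over the settings planned in advance. The median log2 fold change of the 8 genes was 0.71 and 0.64, against -0.01 and -0.02 over all tested genes. Both comparisons use the same 4 Control libraries.

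**Figure D1:**
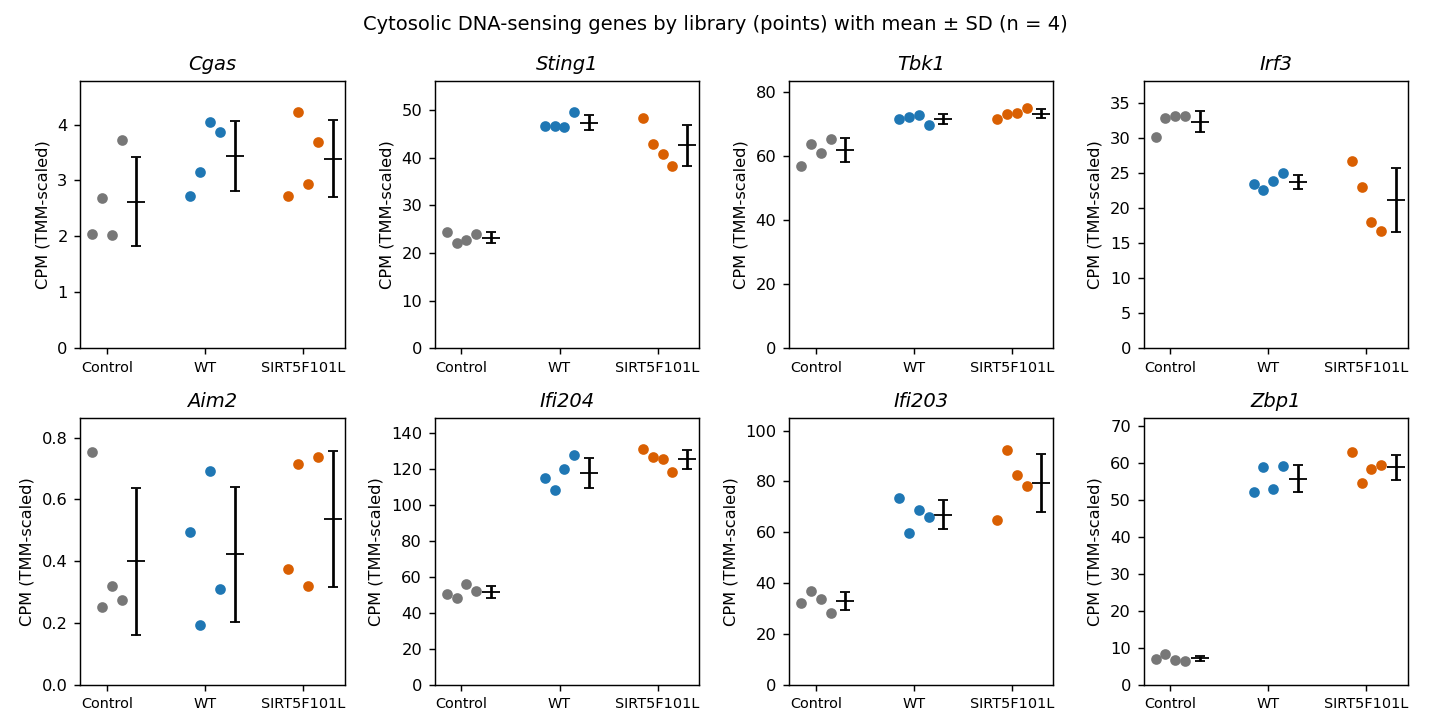
TMM-scaled CPM (y axis, linear, from 0) of the 8 genes with counts, with 1 point per library and the mean ± SD of 4 libraries beside each group. The Control points lie apart from all 8 plasmid points for Sting1, Tbk1, Irf3, Ifi204, Ifi203 and Zbp1. For Cgas Control replicate 4 lies among the plasmid points and the other 3 lie below them, and for Aim2 the groups overlap.

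Zbp1, the Z-nucleic acid sensor that recruits RIPK3, changed most. Control replicates 1 to 4 had 7.09, 8.26, 6.82 and 6.50 CPM, WT replicates 52.1, 58.9, 53.1 and 59.3 CPM, and SIRT5F101L replicates 62.9, 54.6, 58.4 and 59.5 CPM. Every plasmid library was far above every Control library, and the plasmid groups overlapped. Mean levels were 7.17 ± 0.769, 55.9 ± 3.76 and 58.9 ± 3.41 CPM (SD, n = 4), a 7.77-fold higher level in WT (log2 2.96, SE 0.09, edgeR adjusted p = 2.57e-16) and an 8.20-fold higher one in SIRT5F101L (log2 3.04, SE 0.09, adjusted p = 1.70e-16). These values rest on 119 to 163 counts a library in Control and 841 to 1455 in the plasmid groups. No other gene shares a stretch of the Zbp1 transcript at 95% identity over 100 bases.

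Ifi204, the mouse relative of IFI16, was already well expressed in Control, at 50.5, 48.1, 55.9 and 52.2 CPM. It stood at 115, 108, 120 and 128 CPM in the WT libraries and at 131, 127, 126 and 118 CPM in the SIRT5F101L libraries. The 8 plasmid values overlap one another and none reaches down to Control. The difference was 2.28-fold in WT (log2 1.19, SE 0.07, edgeR adjusted p = 4.89e-12) and 2.43-fold in SIRT5F101L (log2 1.28, SE 0.07, adjusted p = 1.39e-12).

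Ifi203, another nuclear p200 protein, had 32.2, 36.9, 33.9 and 28.3 CPM in Control libraries, 73.5, 59.8, 68.7 and 66.0 CPM in WT and 64.9, 92.3, 82.5 and 78.2 CPM in SIRT5F101L. Plasmid and Control libraries did not overlap, and SIRT5F101L replicate 1 was the only library of its group inside the WT range. The log2 fold change was 1.03 in WT (SE 0.10, edgeR adjusted p = 2.63e-08) and 1.27 in SIRT5F101L (SE 0.10, adjusted p = 9.48e-10). Single p200 genes are uncertain here, because they are near copies of each other: 59.4% of the longest Ifi204 transcript has a copy of at least 95% identity elsewhere, nearly all of it in Ifi211, and 38.1% of that of Ifi203, most of it in Mndal. How reads that fit several genes were counted is not given in the sources used here.

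A sum over the family genes found does not depend on which of them a read was given to. Reads left uncounted or given to a gene outside the sum would be missing from it. Pydc3 and Pydc4, also of the family, matched no gene ID and are not in it. Summed over 13 PYHIN genes, the level was 277 ± 24.6 CPM in Control (251 to 309), 533 ± 14.8 CPM in WT (513 to 547) and 605 ± 48.6 CPM in SIRT5F101L (559 to 669), each SD over n = 4. The plasmid groups did not overlap Control, nor each other; the sum was not tested. Aim2, Ifi204 and Ifi203 together made up 27.6% to 35.6% of the sum in every library. Of the 10 other PYHIN genes found in the tables, 7 were tested, and 6 were called higher and 0 lower in each plasmid group, beside the 28.7% and 30% of all tested genes called higher. The 6 include Ifi208 and Ifi209, which were low in Control and passed the expression filter only through the plasmid groups. A lower call was thus not open to them, and the shares are no like background for these 2. Of the called genes that averaged at least 1 CPM over the 12 libraries, Ifi207 rose from 9.28 ± 2.13 CPM to 29.3 ± 3.80 and 34.4 ± 7.84 (log2 1.66 and 1.89, SE 0.16 and 0.16). Ifi209 had larger fitted changes (2.64 and 2.92, SE 0.35 and 0.34) from a Control level of 3, 14, 5 and 6 counts (0.370 ± 0.235 CPM), and it reached that average only through the plasmid groups (2.40 ± 0.706 and 2.90 ± 0.218 CPM). The remaining family members were looked up after the values were seen. Ifi202b, which lacks a PYRIN domain and can block AIM2, had the highest count of the family and rose from 163 ± 19 to 278 ± 10.4 and 311 ± 25.9 CPM (log2 0.78 and 0.94). Ifi211, the near copy of Ifi204, changed by 1.08 and 1.61 on the log2 scale and Mndal by 0.55 and 0.69 (the WT call of Mndal was lost without WT replicate 3, edgeR adjusted p = 0.0505). Ifi208 was called on few counts, 0, 1, 5 and 5 in Control, 9, 9, 15 and 16 in WT and 11, 6, 19 and 13 in SIRT5F101L; Control lay near the floor of 3 counts, so no fold is given. Ifi205 did not pass the test, at -0.11 and 0.23 (edgeR adjusted p = 0.846 and 0.646). Of the 6 tested genes with the ISRE core in their window, 5 (Ifi203, Ifi207, Ifi208, Ifi211 and Mndal) were called higher in both plasmid groups, Ifi208 on those few counts, and Ifi205 was not. Ifi202b and Ifi209, in whose windows the core was not found, were called higher as well.

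Cgas, the enzyme that makes cGAMP, was low in every library. It had 35, 53, 38 and 68 counts in Control, 55, 49, 70 and 75 in WT and 51, 65, 73 and 65 in SIRT5F101L. On the CPM scale these are 2.03, 2.69, 2.02 and 3.71, then 2.71, 3.14, 4.04 and 3.86, then 2.73, 4.22, 2.93 and 3.68. Control replicates 1 to 3 lie below all 8 plasmid values, and Control replicate 4 lies among them. The log2 fold change was 0.39 in WT (95% interval -0.08 to 0.87, edgeR adjusted p = 0.150) and 0.36 in SIRT5F101L (-0.11 to 0.83, adjusted p = 0.178), so neither passed. Without Control replicate 4 both passed, at 0.61 (adjusted p = 0.0325) and 0.57 (adjusted p = 0.0392). Of the longest Cgas transcript, 8.45% has a near copy elsewhere.

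Aim2, the inflammasome-forming DNA sensor, was at the edge of detection, with 13, 5, 6 and 5 counts in Control, 10, 3, 12 and 6 in WT and 7, 11, 8 and 13 in SIRT5F101L. The groups overlap fully, at 0.400 ± 0.238, 0.422 ± 0.219 and 0.537 ± 0.220 CPM (SD, n = 4). The log2 fold changes, 0.11 in WT (95% interval -0.96 to 1.17, edgeR adjusted p = 0.875) and 0.39 in SIRT5F101L (-0.64 to 1.42, adjusted p = 0.508), leave room for a doubling as well as for a fall. A change of Aim2 was not detectable at this depth.

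The adaptor Sting1 roughly doubled. Control libraries had 24.3, 22.0, 22.7 and 23.9 CPM, WT libraries 46.8, 46.7, 46.4 and 49.6 CPM, and SIRT5F101L libraries 48.4, 43.0, 40.8 and 38.3 CPM. The lowest plasmid library was well above the highest Control library. Sting1 was 2.04-fold higher in WT (log2 1.03, SE 0.08, edgeR adjusted p = 5.82e-10) and 1.84-fold higher in SIRT5F101L (log2 0.88, SE 0.08, adjusted p = 6.76e-09).

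Tbk1, the kinase that STING recruits, changed by little but evenly. It had 56.9, 64.0, 61.1 and 65.4 CPM in Control, 71.7, 72.3, 73.0 and 69.6 CPM in WT and 71.7, 73.1, 73.6 and 75.0 CPM in SIRT5F101L. All plasmid values lie above all Control values, though the gap from 65.4 to 69.6 CPM is narrow. Tbk1 was 1.16-fold higher in WT (log2 0.21, SE 0.06, edgeR adjusted p = 0.00464) and 1.19-fold higher in SIRT5F101L (log2 0.25, SE 0.06, adjusted p = 0.00125).

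Irf3, the factor that TBK1 activates, was the one gene that fell. Its level was 30.2, 32.9, 33.1 and 33.2 CPM in Control, 23.4, 22.5, 23.9 and 24.9 CPM in WT and 26.7, 23.0, 18 and 16.8 CPM in SIRT5F101L. Every plasmid library was below every Control library, and the SIRT5F101L libraries spread on both sides of the WT group. The log2 fold change was -0.45 in WT (SE 0.11, edgeR adjusted p = 0.00184) and -0.62 in SIRT5F101L (SE 0.11, adjusted p = 8.06e-05). A short stretch of its exons, 2.56%, overlaps Bcl2l12 on the other strand.

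Trex1 was listed at 0 counts in all 12 libraries, so it has no fold change and no test. In GENCODE M21 every exon base of Trex1 lies inside exons of Atrip on the same strand, and 92.5% of its transcript is shared with that gene. Atrip, which encodes the partner of the ATR kinase, had 276 to 476 counts a library and did not pass the test against Control (log2 0.08 in WT and 0.01 in SIRT5F101L, edgeR adjusted p = 0.488 and 0.928). Of 129 autosomal protein-coding genes that lie wholly within same-strand exons of another gene, 62 (48.1%) were at 0 in all libraries, against 17.8% of 19049 genes without such an overlap. How reads in such exons were assigned was not tested, and the value says nothing on whether chondrocytes express Trex1.

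Levels can be compared between genes only per length, as CPM per kilobase of exon (GENCODE M21). In Control the order was Tbk1 (15.8 ± 0.960), Ifi204 (14.5 ± 0.929), Irf3 (9.39 ± 0.423), Sting1 (8.47 ± 0.391), Ifi203 (4.90 ± 0.536), Zbp1 (2.03 ± 0.218), Cgas (0.634 ± 0.193) and Aim2 (0.114 ± 0.0680), each mean ± SD over n = 4. The libraries of Tbk1 and Ifi204 overlap, as do those of Irf3 and Sting1, and the other steps are wider than the spread. In WT the order became Ifi204 (33.1 ± 2.32), Tbk1 (18.3 ± 0.366), Sting1 (17.3 ± 0.549), Zbp1 (15.8 ± 1.07), Ifi203 (9.99 ± 0.851), Irf3 (6.88 ± 0.294), Cgas (0.834 ± 0.150) and Aim2 (0.121 ± 0.0626). Tbk1 and Sting1 overlap there. Zbp1 stood well below Irf3 in Control and at more than double its level in WT. In SIRT5F101L, Zbp1 (16.7 ± 0.967) and Sting1 (15.5 ± 1.58) overlapped each other and lay between Tbk1 (18.8 ± 0.355) and Ifi203 (11.9 ± 1.70), with Ifi204 at 35.2 ± 1.48 and Irf3 at 6.14 ± 1.34. Cgas (0.822 ± 0.168) and Aim2 (0.153 ± 0.0627) remained lowest. In all 3 groups the Cgas transcript was thus far lower, per length, than those of Sting1 and Tbk1; proteins were not measured.

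**Figure D2:**
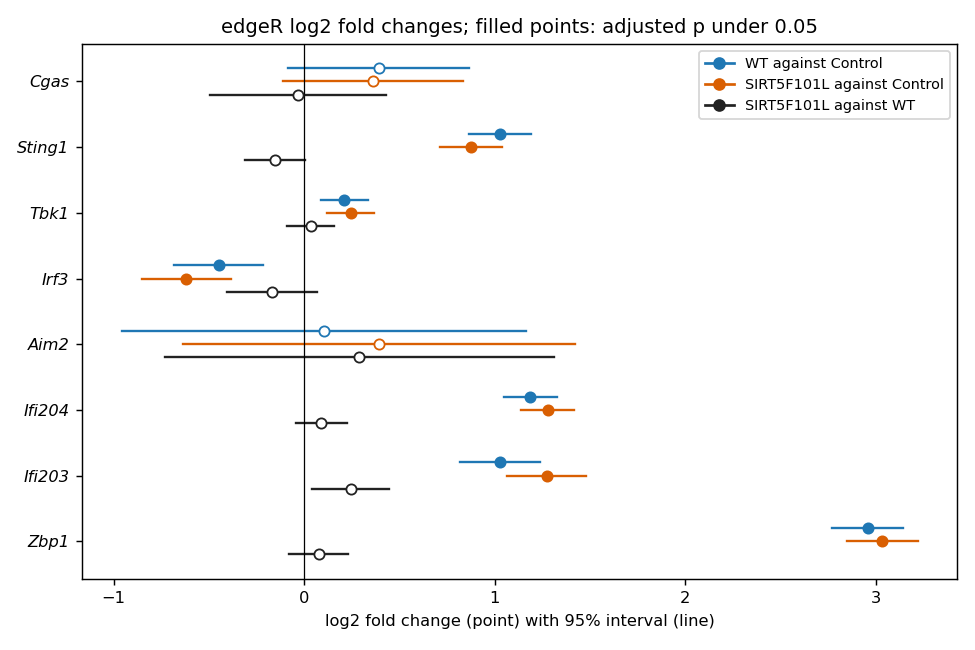
Log2 fold changes from edgeR (x axis; point) with 95% intervals (line) for the 8 genes with counts in the 3 comparisons; filled points have an adjusted p under 0.05. The blue and orange points are filled and to the right of 0 for Sting1, Tbk1, Ifi204, Ifi203 and Zbp1 and to the left for Irf3, and all black points (SIRT5F101L against WT) are open.

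The second question was whether cells with the F101L plasmid differed from cells with the wild-type plasmid. None of the 8 genes passed in SIRT5F101L against WT, where 0.0421% of all tested genes did (0.0281% higher, 0.014% lower), and for none of them were the groups apart, against 4.02% of all tested genes. Without adjustment 1 gene, Ifi203, was under 0.05 (log2 0.25, 95% interval 0.04 to 0.45, edgeR adjusted p = 0.371). The 95% intervals bound what a difference could be. They run from -0.09 to 0.16 for Tbk1, from -0.04 to 0.23 for Ifi204 and from -0.08 to 0.23 for Zbp1. For Sting1 the interval is -0.31 to 0.00 and for Irf3 -0.41 to 0.07. They are wide for the scarce genes, at -0.49 to 0.43 for Cgas and -0.73 to 1.31 for Aim2.

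One library bears on that result. With SIRT5F101L replicate 1 left out, 3 of the 8 genes passed edgeR's test against WT: Ifi203 at a log2 of 0.33 (adjusted p = 0.00384), Irf3 at -0.31 (adjusted p = 0.0282) and Sting1 at -0.22 (adjusted p = 0.0372). Over all genes the number called went from 6 to 2213, which is 15.2% of the genes tested in that fit. Relative to the WT mean, SIRT5F101L replicates 1 to 4 stood at 96.9%, 138%, 123% and 117% for Ifi203, at 113%, 97.2%, 75.9% and 70.9% for Irf3, and at 102%, 90.6%, 86.2% and 80.7% for Sting1. Replicate 1 is at one end of its group for each of the 3 genes. It lies within the WT range for Ifi203 and Sting1 and above it for Irf3, where replicate 2 is the library nearest the WT mean.

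The trend of levels on exon length differs between the same libraries. The slope of log2 CPM on log2 exon length, each gene taken relative to its mean, was -0.0525 in SIRT5F101L replicate 1 and 0.0671 to 0.0854 in the other 3, against -0.0324 to 0.0421 in WT (highest in replicate 1) and -0.0528 to -0.0331 in Control, over 14080 genes. Ifi203 has 6706 bases of exon over all its annotated transcripts, above the median of 4.199 kb, and Irf3 and Sting1 have 3442 and 2741. Their longest single transcripts are shorter, at 3754 bases for Ifi203, 2031 for Irf3 and 2299 for Sting1. With each library's trend on length as an offset, an alternative chosen after seeing the data, and without replicate 1, Ifi203 passed (0.26, edgeR adjusted p = 0.0205), and Irf3 (-0.28, adjusted p = 0.0597) and Sting1 (-0.16, adjusted p = 0.159) did not; 9.23% of all genes tested in that fit passed. With all libraries and the same offset none of the 8 passed against WT, and the calls against Control were the same 6.

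**Figure D3:**
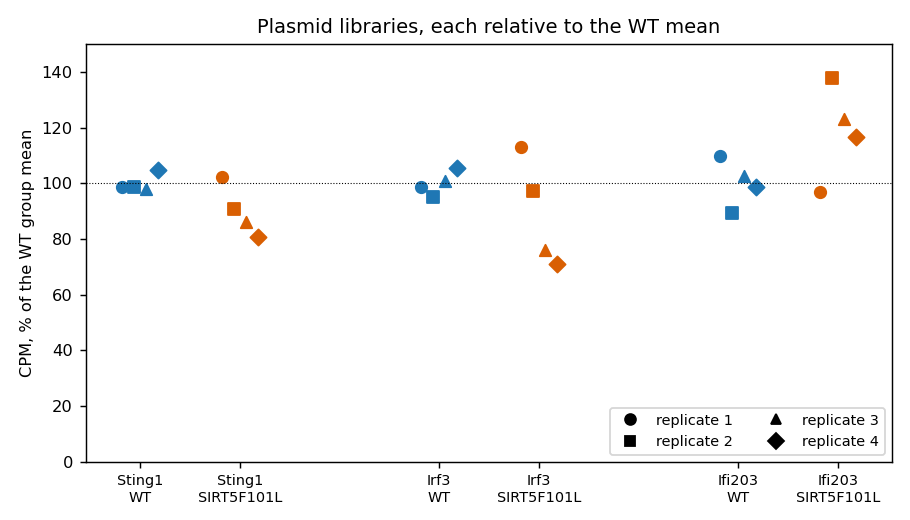
CPM of Sting1, Irf3 and Ifi203 in each plasmid library as a percentage of the WT group mean (y axis, from 0; dotted line at 100%), with the symbol giving the replicate. SIRT5F101L replicate 1 (circle) stands at 102%, 113% and 96.9%, and the other 3 SIRT5F101L libraries at 80.7% to 90.6% for Sting1, 70.9% to 97.2% for Irf3 and 117% to 138% for Ifi203.

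The other genes of the pathway were counted list by list, each beside the same background shares of 56.8% and 60.7% called. By direction these are 28.7% higher and 28.1% lower in WT, and 30% higher and 30.7% lower in SIRT5F101L. Of 21 tested DNA sensors and cofactors outside the PYHIN family, 7 were called higher and 4 lower in WT, and 8 higher and 3 lower in SIRT5F101L, with medians of 0.08 and 0.04 on the log2 scale. The highest was Lrrfip1, a nucleic acid binder that acts through beta-catenin (log2 0.90 and 0.89, SE 0.06 and 0.06). Rad50, of the MRN repair complex (0.32 and 0.49), and Polr3a, the large subunit of RNA polymerase III, which transcribes AT-rich DNA into a RIG-I ligand (0.32 and 0.34), followed. The lowest were Xrcc5, which encodes Ku80 (-0.51 and -0.48), and Zcchc3, a cofactor of cGAS (-0.42 and -0.45; the WT call was lost without Control replicate 3 or WT replicate 1, adjusted p = 0.0568 and 0.0506). As a list these sensors sat near the median of all genes, while the 7 tested other PYHIN genes had medians of 1.08 and 1.61. The difference between the 2 lists was not tested.

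Among 12 tested nucleases and genes of nucleic acid clearance, 3 were called higher and 5 lower in WT, and 1 higher and 6 lower in SIRT5F101L (medians -0.24 and -0.18). The exception at the top was Enpp1, the ectoenzyme that hydrolyses cGAMP outside cells, which rose from 109 ± 7.61 CPM in Control to 394 ± 22.2 in WT and 433 ± 14.4 in SIRT5F101L (log2 1.86 and 1.99, edgeR adjusted p = 1.88e-15 and 6.32e-16). Smpdl3a, a secreted phosphodiesterase also reported to degrade cGAMP, fell (-1.10 and -1.20), as did the lysosomal exonuclease Pld4 (-1.35 and -1.20). Rnaseh2c, a subunit of ribonuclease H2, was called in WT only (0.60; in SIRT5F101L 0.17, adjusted p = 0.357), and the difference between the plasmid groups did not pass (-0.44, adjusted p = 0.360). Without SIRT5F101L replicate 1, Rnaseh2c stood at -0.09 against Control (adjusted p = 0.409), and the difference between the plasmid groups passed (log2 -0.69, adjusted p = 5.09e-06). It also passed with no filter beyond 1 count (-0.44, adjusted p = 0.000173).

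Of 24 tested genes that regulate STING or carry cGAMP across membranes, 10 were called higher and 3 lower in WT, and 10 higher and 5 lower in SIRT5F101L (medians 0.01 and 0.05). Lrrc8d, a subunit of the volume-regulated anion channels that pass cGAMP, rose about 4-fold, from 20.0 ± 1.20 to 81.8 ± 4.98 and 86.4 ± 8.39 CPM (log2 2.03 and 2.11, SE 0.08 and 0.08). Trim56, a ubiquitin ligase for cGAS and STING, rose (0.90 and 0.96), and Nlrx1, which restrains STING (-0.82 and -0.62), and the deubiquitinase Usp21 (-0.36 and -0.48) fell. Rnf5, a ligase that marks STING for degradation, passed only in SIRT5F101L (-0.63, adjusted p = 0.00306; in WT -0.22, adjusted p = 0.265), and its difference between the plasmid groups did not pass (-0.41, adjusted p = 0.375), though it did without SIRT5F101L replicate 1 (-0.64, adjusted p = 0.000641) and with no filter beyond 1 count (-0.41, adjusted p = 0.0164). With only the 8 libraries compared, Rnf5 in WT passed as well (-0.21, adjusted p = 0.0459).

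Downstream kinases and transcription factors were mostly higher: 17 of 24 in WT and 16 of 24 in SIRT5F101L, with 2 lower in each and medians of 0.31 and 0.34. Irf7, the interferon-amplifying relative of Irf3, rose about 3-fold, from 144 ± 6.90 CPM to 453 ± 19.5 and 450 ± 36.1 (log2 1.65 and 1.65, edgeR adjusted p = 1.62e-14 and 1.71e-14), while Irf3 fell. Ikbke, the kinase most like Tbk1, changed by 0.93 and 0.90, against 0.21 and 0.25 for Tbk1 itself. Nfkb1, a subunit of NF-kB, rose by 0.94 and 1.06. Irf9, a transcription factor of the interferon response that binds the ISRE, fell (-0.23 and -0.26).

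Of 13 tested genes that act with AIM2 or ZBP1, 8 were called higher and 2 lower in each plasmid group (medians 0.56 and 0.65). On the inflammasome side the adaptor Pycard, which AIM2 needs, was at 2.27 ± 0.434, 1.71 ± 0.151 and 1.24 ± 0.382 CPM (log2 -0.41, adjusted p = 0.172, and -0.85, adjusted p = 0.00728). Casp1, the protease it recruits, was at 1.03 ± 0.572, 0.482 ± 0.0756 and 0.608 ± 0.119 CPM (-1.10, adjusted p = 0.0223, and -0.75, adjusted p = 0.0935). The Casp1 call in WT was lost without Control replicate 2, the library with the most Casp1 (-0.64, adjusted p = 0.164), and without WT replicate 1 (-1.01, adjusted p = 0.0618). Il18, a cytokine that Casp1 cleaves, fell (-1.23 and -1.30). Casp4, the mouse caspase-11 of the lipopolysaccharide-triggered branch (2.42 and 2.74), and Gsdmd, the pore former both caspases cut (1.68 and 1.58), rose. On the ZBP1 side the RNA editor Adar, which restrains ZBP1 (0.65 and 0.87), and Cflar, an inhibitor of caspase-8 (1.50 and 1.68), rose. Ripk3 and Mlkl, the kinase and the membrane-breaking effector of necroptosis, were looked up after the values were seen: both were called higher, Ripk3 with log2 fold changes of 0.79 and 0.66 and Mlkl with 0.76 and 0.82.

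The outputs of the pathway did not move as one. Ifnb1, the interferon-beta gene that IRF3 drives, had 3 counts in one Control library, 2 in one SIRT5F101L library and 0 in the other 10, so no level could be set. The other 6 interferon genes of the list and Cxcl10 were listed at 0 in all libraries. Of the 12 outputs tested, 8 were called higher and 1 lower in WT, and 5 higher and 1 lower in SIRT5F101L (medians 0.40 and 0.16). The chemokine gene Ccl5 rose from 3.82 ± 0.639 CPM to 477 ± 36.8 and 437 ± 55.3 (log2 6.96 and 6.83, SE 0.12 and 0.12), and Il6, an NF-kB target, from a mean of 1.67 to 75.5 and 94.2 CPM (5.50 and 5.82, SE 0.11 and 0.11). Il6 was at 69.8 to 80.3 CPM in WT and 90.8 to 99.9 in SIRT5F101L, which do not overlap. The difference (log2 0.32, SE 0.07) did not pass edgeR's test (adjusted p = 0.137), and it passed by DESeq2 (adjusted p = 0.00341), with no filter beyond 1 count (0.00964) and without SIRT5F101L replicate 1 (0.00141). Ifit3, an interferon-stimulated gene whose promoter window holds the ISRE core, fell from 303 ± 6.42 to 175 ± 14.2 and 173 ± 20.2 CPM (-0.79 and -0.81, edgeR adjusted p = 1.75e-08 and 1.17e-08). Its neighbour in function Ifit1, looked up after the values were seen and with the same core, rose (1.26 and 1.27).

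Cytosolic RNA sensing, the parallel route to TBK1 and IRF3, was called higher for 6 of 10 genes in WT and 7 of 10 in SIRT5F101L, and lower for 2 in each (medians 0.29 and 0.36). The receptors Ifih1 (MDA5; from 43.7 to 114 and 121 CPM) and Ddx58 (RIG-I; 0.32 and 0.48), the ubiquitin ligase Trim25 (0.91 and 0.91) and the adaptor Mavs (0.26 and 0.23) rose. The adaptor Ticam1 (-0.65 and -0.63) and the RIG-I ligase Rnf135 (-0.52 and -0.55) fell. In SIRT5F101L against WT none of the 123 tested genes of these 8 lists passed edgeR's test with all libraries and the default filter. With no filter beyond 1 count 5 of 135 passed (Il6, Ifi211, Rnaseh2c, Rnf5 and Banf1, a DNA-binding protein that competes with cGAS), against 1.38% of all genes tested so, and by DESeq2 Il6 alone, against 0.4% of all genes. Without SIRT5F101L replicate 1 where 8 other PYHIN genes passed the count filter, the calls were 2 of those 8, 1 of 21 sensors, 2 of 12 nucleases, 1 of 24 STING regulators, 3 of 24 kinases and factors, 2 of 13 effectors, 4 of 12 outputs and 3 of 10 RNA sensing genes. Over the 8 lists that is 18 of 124 (14.5%), near the 15.2% of all genes tested in that fit.

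**Figure D4:**
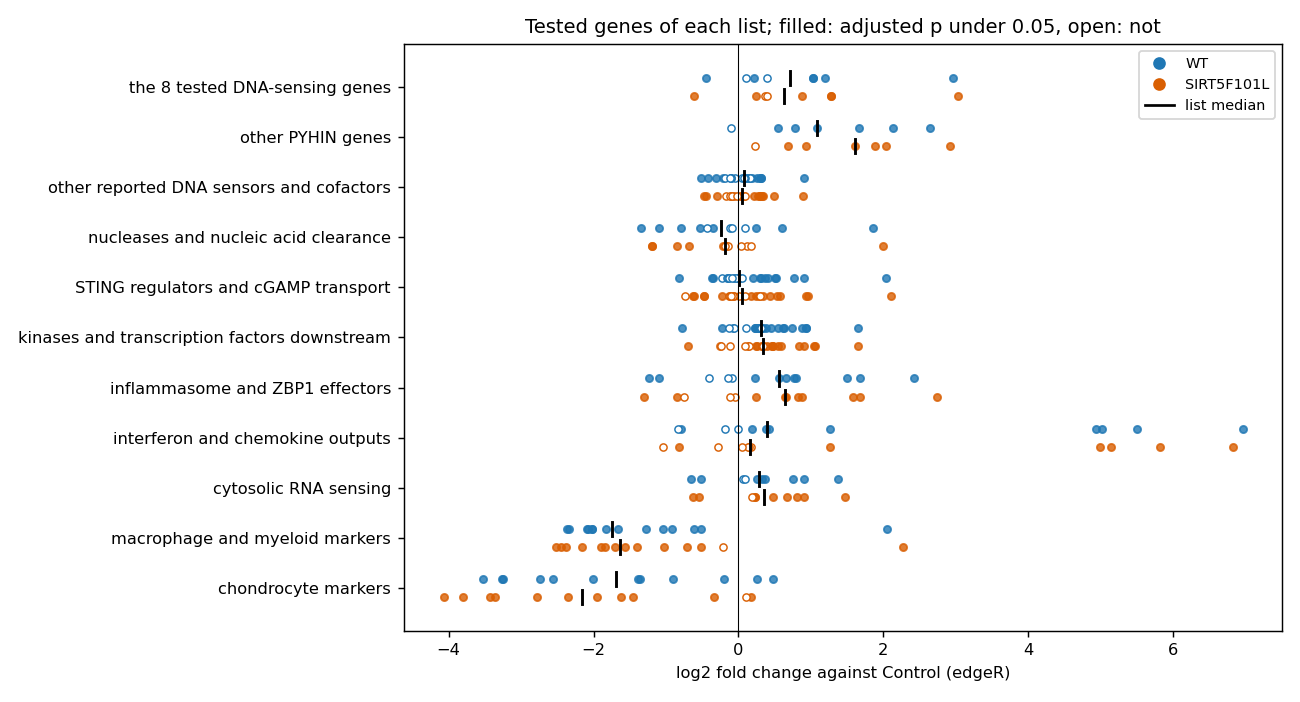
Log2 fold change against Control from edgeR (x axis) of each tested gene, by list (rows), for WT (blue) and SIRT5F101L (orange); filled points have an adjusted p under 0.05 and the black bar is the list median. The 8 DNA-sensing genes (medians 0.71 and 0.64) and the other PYHIN genes (1.08 and 1.61) lie mostly to the right of 0, other DNA sensors (0.08 and 0.04) around it, and myeloid and chondrocyte markers mostly to the left. The other PYHIN genes include Ifi208 and Ifi209, which were low in Control and passed the filter only through the plasmid groups.

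Markers of the labelled cell type and of others moved between the same groups. In bulk RNA, fewer cells of a type and less RNA per cell cannot be told apart. All 12 chondrocyte markers had counts, and 10 were called lower in each plasmid group, with 2 higher in WT and 1 in SIRT5F101L (medians -1.70 and -2.16), beside 28.1% and 30.7% of all tested genes called lower. The 1 higher in SIRT5F101L was Hapln1, a link protein of cartilage matrix (0.18, adjusted p = 0.0329), whose call was lost without Control replicate 1, 2 or 3 or SIRT5F101L replicate 2 (adjusted p = 0.0806, 0.0548, 0.0708 and 0.175), with upper-quartile scaling (0.11) and with no filter beyond 1 count (0.0556). Between the plasmid groups, the median in SIRT5F101L against WT was -0.36, and Col11a2, a cartilage collagen gene named after its values were seen, was called lower, at 26.1 ± 1.67 CPM in WT and 16.8 ± 1.35 in SIRT5F101L (SD, n = 4; log2 -0.63, edgeR adjusted p = 0.0339). The call was lost in 10 of the 12 fits that left out 1 library, at log2 fold changes of -0.66 to -0.58 over the 12. By DESeq2 Acan, Col2a1 and Col9a1 were called lower too (adjusted p = 0.00342, 0.00391 and 0.00409), as they were with no filter beyond 1 count. Without SIRT5F101L replicate 1, the fit in which Ifi203, Irf3 and Sting1 passed, 5 of the 12 were called lower and 0 higher. Of 16 macrophage and myeloid markers, a cell type rich in STING and p200 proteins, 14 were tested, with 13 called lower and 1 higher in WT and 12 lower and 1 higher in SIRT5F101L. Their summed level was 234 to 273 CPM in Control, 148 to 168 in WT and 155 to 199 in SIRT5F101L. Itgam was at 0 throughout, and the defining leukocyte marker Ptprc was at 1.90 ± 0.311, 0.788 ± 0.400 and 0.710 ± 0.288 CPM. The marker that rose was Cd14, which was named after its values were seen, from 12.4 ± 1.02 to 51.3 ± 2.96 and 59.8 ± 8.85 CPM. No lymphocyte marker was tested, 5 of 8 were at 0, and the 8 summed to 0.154 to 1.01 CPM. Endothelial markers summed to 6.74 to 9.98 CPM, with 1 of 5 called higher in each group. Of 8 fibroblast and synovial markers, 3 were called higher and 5 lower in each (medians -1.33 and -1.27). They summed to 30724 to 36813 CPM in Control, 11246 to 12920 in WT and 11305 to 12632 in SIRT5F101L. The chondrocyte markers summed to 9230 to 11593 CPM in Control, 2851 to 2967 in WT and 2322 to 2567 in SIRT5F101L. The part that a changed mix of cells has in the levels of the sensing genes was not tested.

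The genes whose log2 CPM tracked each sensing gene most closely over the 12 libraries were listed as a description, among the about 10190 genes that averaged 5 CPM or more. They were Ugdh (Pearson r = 0.998) and S100a8 (0.998) for Zbp1, Rassf3 (0.995) and Ackr3 (0.995) for Ifi204, Dram1 (0.993) and Wwtr1 (0.992) for Ifi203, and Hspd1 (0.992) and Dok1 (0.992) for Sting1. For Irf3 they were Eci1 (0.984) and Selenok (0.962), and for Tbk1 Grk5 (0.971) and Tert (0.970). The scarce genes had looser partners, Nxf1 (0.913) and Deaf1 (0.881) for Cgas and Zfp592 (0.754) and E130308A19Rik (0.749) for Aim2. The points share their libraries, and the gap between Control and the plasmid libraries enters each r for the genes that changed. How much of each r it sets was not tested, as no correlation was taken within a group.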

How the data were processed

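The authors deposited whole-number counts per Ensembl gene ID for each library, without a header. Oligo-dT beads captured the mRNA, a NEBNext Ultra kit made the libraries, and reads were 150 bp and paired, per the labels' protocols. The submitters' processing notes name FastQC 0.11.9, HISAT2 2.2.1, HTSeq 2.0.2, DESeq2 1.38.3 and the build GRCm39, without a role or order; the annotation release, the strand setting and the handling of multiply mapped reads are not given in the sources used here. Of 57010 IDs, 52029 were matched to a symbol. Exon lengths, overlaps (bedtools 2.31.1) and near copies (BLAST 2.17.0; at least 95% identity over at least 100 bases) came from GENCODE M21, a GRCm38 annotation, so its build differs from that of the files.

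Counts were tested with edgeR 4.0.16 (R 4.3.3): TMM scaling, the default expression filter by group, 14253 genes, a quasi-likelihood fit with group as the only term, over all 12 libraries (9 residual degrees of freedom, biological coefficient of variation 9.18%), 2-sided tests and Benjamini-Hochberg adjustment over all tested genes. Standard errors are the size of the log2 fold change over the square root of F. The procedure was tested on simulated data. No 2 libraries were identical, and pairs within a group differed by more than sampling noise. A count of 3 is the floor (0.124 to 0.199 CPM), which covers counting error only.

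The 9 genes, the other lists and the tests were chosen with earlier results of these data known. Named genes are the 9; from each other pathway list the 2 highest and 2 lowest called log2 fold changes of either plasmid group against Control with a mean of at least 1 CPM; Ifnb1, Irf7, Ikbke, Pycard, Casp1, Adar, Mavs and Ddx58; and the 2 closest correlates of each tested gene. All 8 genes with counts passed the filter, so the exact permutation test planned for those below it was not needed. Alternatives were other scalings and filters, a robust prior, fitting only the 8 libraries of a comparison, DESeq2 1.42.0, limma-trend (limma 3.58.1), each library left out and, added after seeing the data, a loess trend on exon length as an offset (span 0.5).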

Additional observations from a re-analysis of the deposited data

Results flagged for a closer look

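Within each group of 4, a library was picked out where its gap to the nearest other, over the range of the group, passed Dixon's 95% limit for 4 values. Over 24 groups of the 8 genes with counts this found 3, where chance alone would give about 1.2. Sting1 in WT replicate 4 was at 49.6 CPM, above the other WT libraries at 46.4 to 46.8 (ratio 0.897). Irf3 in Control replicate 1 was at 30.2 CPM, below 32.9 to 33.2 in the other Control libraries (0.898). Aim2 in Control replicate 1 was at 0.755 CPM, above 0.253 to 0.320 (0.868), a gap between 13 counts and 5 or 6. In each case leaving the library out changed no call of that gene against Control.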

How the results depend on the processing

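Over the settings planned in advance, 462 of 474 fold changes of the 8 genes kept their direction and side of the threshold, 5 passed only in the alternative and 7 changed sign. The 6 genes called against Control were called in every setting run, the length offset included; their log2 fold changes over planned settings ran from 2.91 to 3.04 in WT and 2.99 to 3.11 in SIRT5F101L for Zbp1, and from -0.50 to -0.43 and -0.75 to -0.53 for Irf3. All signs that changed belong to genes that passed in no setting of that comparison. Aim2 in WT against Control went to -0.07 without Control replicate 2, -0.04 without Control replicate 4 and -0.21 without WT replicate 3, in a range of -0.21 to 0.58 with a library left out. Cgas in SIRT5F101L against WT went to 0.05 and 0.03 without WT replicate 3 or 4, 0.057 and 0.04 without SIRT5F101L replicate 1 or 3, and 0.062 with the length offset and without SIRT5F101L replicate 1, in a range of -0.15 to 0.057 with a library left out. The cause was not tested. The number of the 8 genes called in SIRT5F101L against WT was 0 to 3 with a library left out (3 without SIRT5F101L replicate 1) and 1 with the length offset and without that library. Genes called there, 6 in all, became 354 with no filter beyond 1 count, 43 by DESeq2, 2 with a robust prior, with only the 8 libraries compared or by limma-trend, 15 with the length offset, 0 to 2213 with a library left out (2213 without SIRT5F101L replicate 1, 3 without Control replicate 2, 0 for the 10 others, with 945 to 4088 at an unadjusted p under 0.05 over these fits), and 1324 with the length offset and without SIRT5F101L replicate 1. Of 70 calls against Control for other named genes, 68 were made in every setting and none changed sign; Casp1 and Zcchc3 in WT were the exceptions. No paired analysis was possible because the labels give no replicate numbers, and the numbers used here only name libraries in order of deposition.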
